A study of Homo sapiens with 4 samples.

Results

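The genes described here are 35 genes of protein folding in the endoplasmic reticulum (ER), of ER-associated degradation (ERAD) and of the unfolded protein response (UPR), taken by symbol from the 57820 gene identifiers of the count files. All 35 matched an identifier, and all 35 passed the filter on low counts. They comprise 9 ER chaperones and co-chaperones, 8 genes of oxidative folding, 2 lectin chaperones, 3 genes of translocation into the ER, 10 ERAD genes and 3 genes for sensors and transcription factors of the UPR.

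Secreted and membrane proteins enter the ER through the Sec61 channel, fold with the help of the Hsp70 chaperone BiP, the Hsp90 chaperone GRP94, lectin chaperones and disulfide isomerases, and are sent back to the cytosol for degradation by ERAD when they do not fold. The UPR reads the load of unfolded protein through the kinase and RNase IRE1, the kinase PERK and the membrane-tethered transcription factor ATF6. IRE1 splices XBP1 mRNA, which yields an active transcription factor, ATF6 is released by proteolysis, and PERK phosphorylates eIF2α, which favours translation of ATF4, a branch that other eIF2α kinases also reach. Counts per gene do not separate spliced from unspliced XBP1 mRNA, and they do not read phosphorylation or cleavage.

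RNA was sequenced from Daoy cells, an established line from a human medulloblastoma, a tumour of the cerebellum, to ask how expression differs when ARID1B, a DNA-binding subunit of SWI/SNF chromatin remodelling complexes, is lowered by a short hairpin RNA (shRNA). The shRNA came from a lentiviral tet-pLKO-puro vector in polyclonal cell populations. The labels give 1 µg/ml doxycycline for 72 h as the treatment of every library, wild type included. The data comprised 1 library labelled ARID1B shRNA with 8792848 reads in genes, and 3 libraries labelled wild type with 12619786, 13228587 and 15390106. Cells with the vector alone and parental cells are the controls of the design, but no label ties either to a given wild-type library or speaks of separate cultures. P-values therefore measure the spread between these 3 libraries, which may be technical, and any batch difference between the lone library and the others cannot be told apart from the shRNA.

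ARID1B itself was not lower where the labels place the shRNA. It stood at 175 CPM (read counts per library, brought to a common scale) in the library labelled ARID1B shRNA, and at 164, 87.9 and 72.8 CPM in the wild-type libraries, a log2 difference of 0.69 ± 0.46 (SE; edgeR adjusted p = 0.399). The difference was -0.18 with a trend on GC content and length removed, and 1.12 without wild-type library 1 (adjusted p = 0.0260). Every direction below is therefore that of the library labelled ARID1B shRNA, without evidence in the counts that the target mRNA was lowered. Markers of endothelial cells (2 of 2 matched) and of immune cells (3 of 3) were under 1 CPM in every library, as were 2 of 3 plasma cell markers. The other, SDC1, had 124 CPM in the library labelled ARID1B shRNA and 82.2, 56.0 and 78.5 CPM in wild type. Of 4 epithelial markers, CDH1 was under 1 CPM in every library, and EPCAM and KRT5 reached at most 1.70 and 2.47 CPM. KRT8 had 164 CPM in the library labelled ARID1B shRNA and 131, 59.2 and 113 CPM in wild type. Neither SDC1 nor KRT8 passed. Of 9 neural markers, ATOH1 was at 0 in all libraries, and NES, SOX2, OTX2, MAP2 and TUBB3 were low, the highest value among them being 7.44 CPM. VIM, which mesenchymal cells also express, fell to 935 CPM in the library labelled ARID1B shRNA, against 2653, 2439 and 2435 CPM in wild type (log2 difference -1.42, adjusted p = 0.0213). SOX9, GLI2 and MAP2 had log2 differences of 0.45, 0.89 and 0.89. Those of SOX2, OTX2, TUBB3 and NES were negative, at -1.52, -0.68, -0.57 and -0.14. VIM was the 1 neural marker that passed. The 9 neural markers summed to 1018 CPM in the library labelled ARID1B shRNA and to 2727, 2490 and 2509 CPM in wild type, mostly VIM. Of 5 fibroblast markers, COL1A1 and COL1A2 were abundant, and in the library labelled ARID1B shRNA DCN, LUM and PDGFRB stood at 1.25, 14.3 and 14.9 CPM. In wild-type libraries 1, 2 and 3, DCN had 0.310, 29.7 and 6.82 CPM, LUM 21.7, 130 and 24.2 CPM, and PDGFRB 38.2, 102 and 33.7 CPM. The controls thus differed widely among themselves in these markers, with library 2 the highest for each. The 5 summed to 3491 CPM in the library labelled ARID1B shRNA and to 3616, 3206 and 5102 CPM in wild type; the log2 difference was 0.35 for COL1A1 and negative for the other 4, and none passed. The part of these markers in the results was not tested, and in bulk RNA fewer cells of a type and less RNA per cell cannot be told apart.

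The promoter of HERPUD1, which encodes a membrane scaffold of the ERAD ubiquitin ligase complex, and that of ERN1, which encodes IRE1, are shown because these were the genes that passed the test. Those of XBP1 and of HSPA5, which encodes BiP, are shown beside them for comparison and were chosen after their values were seen. Each is the 250 bases before the transcription start in RefSeq on GRCh38.p14, written 5′ to 3′ on the gene's own strand: chr16:56931892-56932141 on the plus strand, and chr17:64130145-64130394, chr22:28800570-28800819 (1 of 2 RefSeq windows of the gene) and chr9:125241344-125241593 on the minus strand. Capitals mark the motifs found.
HERPUD1: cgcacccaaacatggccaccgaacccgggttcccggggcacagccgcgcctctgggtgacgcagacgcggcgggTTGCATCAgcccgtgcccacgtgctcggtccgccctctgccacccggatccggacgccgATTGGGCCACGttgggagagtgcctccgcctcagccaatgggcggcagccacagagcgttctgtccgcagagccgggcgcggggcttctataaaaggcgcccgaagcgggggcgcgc
ERN1: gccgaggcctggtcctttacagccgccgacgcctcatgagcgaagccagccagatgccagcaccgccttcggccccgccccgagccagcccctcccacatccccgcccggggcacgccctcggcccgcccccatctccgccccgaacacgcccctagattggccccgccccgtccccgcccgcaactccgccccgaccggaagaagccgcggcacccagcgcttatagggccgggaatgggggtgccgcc
XBP1: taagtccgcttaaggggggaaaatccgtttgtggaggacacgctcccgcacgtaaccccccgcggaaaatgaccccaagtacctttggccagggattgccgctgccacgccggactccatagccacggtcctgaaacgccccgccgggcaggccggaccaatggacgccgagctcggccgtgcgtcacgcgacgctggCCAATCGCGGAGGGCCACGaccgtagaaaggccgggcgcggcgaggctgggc
HSPA5: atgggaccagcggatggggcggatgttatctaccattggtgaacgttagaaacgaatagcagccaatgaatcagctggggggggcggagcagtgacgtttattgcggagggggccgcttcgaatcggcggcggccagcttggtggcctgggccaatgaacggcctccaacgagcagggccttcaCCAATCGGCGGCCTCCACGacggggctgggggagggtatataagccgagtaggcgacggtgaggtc

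Motifs were searched on both strands of a window of 300 bases, which adds 50 bases after the start, and 32 of the 35 genes had such a window. The ER stress response element (ERSE), CCAAT and CCACG separated by 9 bases, is known as a site for ATF6 together with NF-Y. It occurred in the windows of 8 of the 32 genes (25%), namely CALR, CANX, CRELD2, ERO1B, HSP90B1, HSPA5, PDIA6 and XBP1, against 27 of all 35116 windows (0.0769%). A second form, ERSE-II, ATTGG and CCACG separated by 1 base, occurred in 3 genes (9.38%), HERPUD1, HYOU1 and SDF2L1, against 19 windows (0.0541%). The core of the UPR element bound by XBP1, TGACGTGG, was found in DNAJC10 and HYOU1 (6.25%), where the HYOU1 match overlaps its ERSE-II, and in 0.729% of all windows. The C/EBP-ATF response element bound by ATF4, TGATGNAA, was found in HERPUD1 (3.12%) and in 3.62% of all windows. In these shares a gene counts once over all its windows, whereas the background counts every window, those of these genes included. The shares thus have unlike units, and their difference was not tested.

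In the sequences shown, the HERPUD1 promoter holds the C/EBP-ATF match at position -176 and the ERSE-II at -117, counted from the transcription start. The XBP1 promoter holds an ERSE at -52 and the HSPA5 promoter an ERSE at -66. The ERN1 window held no match to these 4 motifs. The 11 genes with an ERSE or ERSE-II had a median log2 difference of -0.02, and 1 of them, HERPUD1, passed the test. The 21 genes with a window and neither motif had a median of 0.07, and 1 of them, ERN1, passed. Of all tested genes, 3.65% were called higher.

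As a group the 35 genes were close to the level of wild type, and 2 of them rose in the library labelled ARID1B shRNA. ERN1 and HERPUD1 passed edgeR's quasi-likelihood test (adjusted p below 0.05 over all tested genes), which is 5.71% of the 35, against 3.65% of the 17024 genes tested. None fell, where 0.834% of tested genes did; 6 of the 35 were lower at an unadjusted p below 0.05 and 5 were higher, against 9.79% and 15.6% of tested genes. DESeq2 called 4 genes higher and 1 lower, against 9.20% and 2.88% of its tested genes. Limma-voom called 2 higher and 0 lower (4.25% and 0.558% of tested genes), as did edgeR with RLE scaling (4.22% and 0.840%), and edgeR with no filter called 5 higher and 4 lower (7.40% and 3.10%). The count of genes called higher depended on the controls. It was 3 when wild-type library 1 was left out (5.43% of tested genes), 1 when library 2 was (0.836%) and 0 when library 3 was (2.68%); 0 were called lower in these fits, where 1.65%, 0.102% and 0.173% of tested genes were.

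The median log2 difference over the 35 genes was 0.01, beside -0.05 over all tested genes, and the values ran from -0.82 for HSP90B1 to 2.43 for ERN1. The library labelled ARID1B shRNA lay above every wild-type library for 12 of the 35 genes (34.3%, against 35.4% of tested genes) and below every one for 10 (28.6%, against 37.9%). For the other 13 it lay within the wild-type range. These shares were near those of all genes. A level at least 2-fold higher was seen for 4 of the 35 genes, against 13.6% of all tested genes. The 4 were ERN1, SDF2L1, XBP1 and HERPUD1. A level at least 2-fold lower was seen for 0 of the 35, against 9.50% of all tested genes. Summed over the 35 genes, reads made up 8055 CPM in the library labelled ARID1B shRNA, against 9136, 9610 and 8863 CPM in the wild-type libraries, below each of them.

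**Figure D1:**
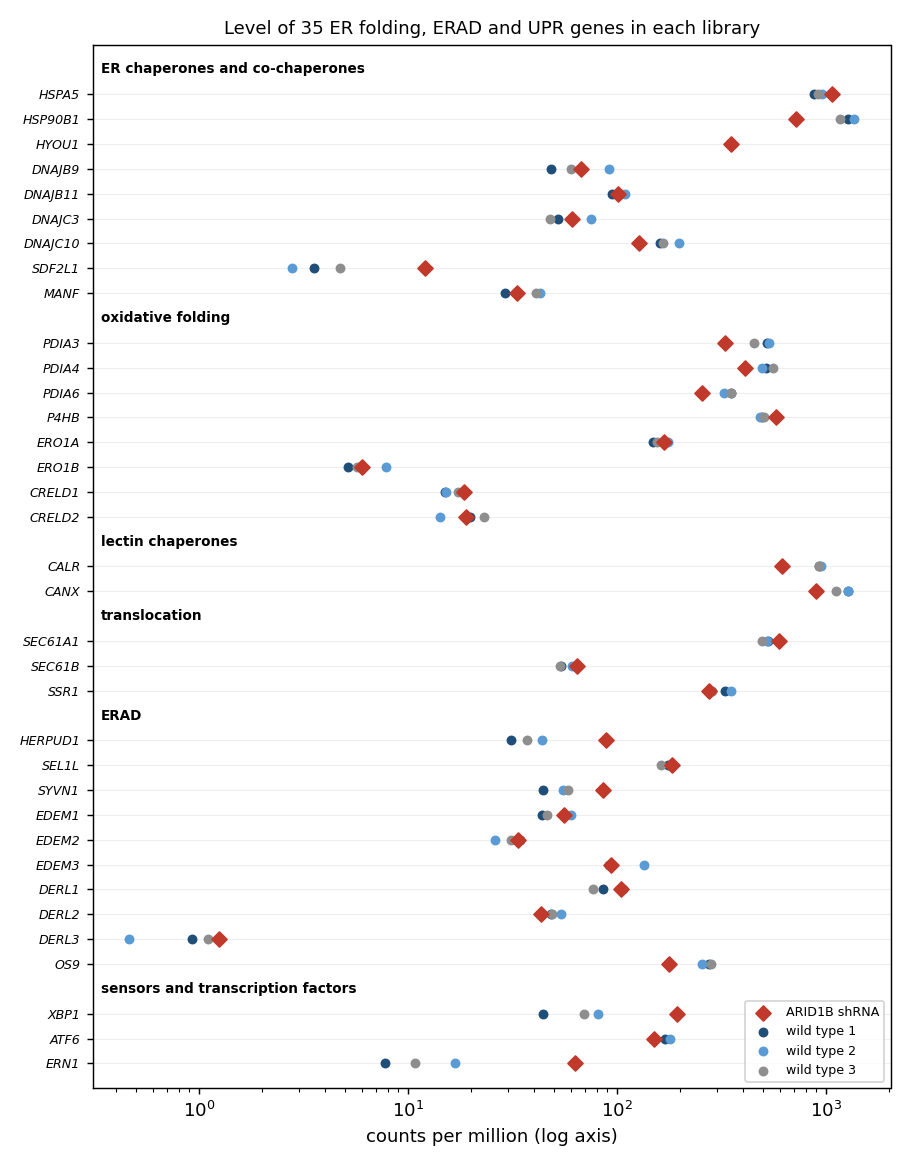
Level of each of the 35 genes in each library, in CPM on a log axis, grouped by role; the diamond is the library labelled ARID1B shRNA and the circles are the 3 wild-type libraries. CPM are not corrected for gene length, so libraries can be compared along a row but genes cannot be compared down the page; the diamond stands clear to the right of the circles for ERN1, XBP1, HERPUD1 and SDF2L1.

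Of the 3 sensors and transcription factors, ERN1 rose, XBP1 missed the threshold and ATF6 lay within the wild-type range. ERN1 reached 63.3 CPM (556 reads) in the library labelled ARID1B shRNA, against 7.75, 16.7 and 10.8 CPM in the wild-type libraries (11.7 ± 4.54, SD, n = 3). The groups did not overlap, although the wild-type libraries themselves spread widely, with a coefficient of variation of 38.6%. ERN1 rose 5.39-fold, a log2 difference of 2.43 ± 0.39 (SE) with a 95% interval of 1.45 to 3.41 (edgeR adjusted p = 0.0378). With the trend on GC content and length removed, it was 2.27 and no longer passed (adjusted p = 0.0672), and without wild-type library 3 it was 2.36 (adjusted p = 0.119).

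XBP1, whose mRNA is the splicing substrate of IRE1, was at 194 CPM (1700 reads) in the library labelled ARID1B shRNA and at 44.2, 81.5 and 69.7 CPM in wild type (65.1 ± 19.1, SD, n = 3). All wild-type values lay far below it, and the log2 difference was 1.57 ± 0.32 (SE), with an interval of 0.76 to 2.38, or 2.97-fold. XBP1 missed the threshold (edgeR adjusted p = 0.0619), passed with the trend removed at 1.79 (adjusted p = 0.0462) and without wild-type library 1 at 1.36 (adjusted p = 0.0119), and passed in DESeq2 (adjusted p = 7.67e-04) and with no filter. It did not pass without wild-type library 2 (adjusted p = 0.0720), without library 3 (0.155), with RLE scaling (0.0570) or in limma-voom (0.0554). A pseudogene copy, XBP1P1, is annotated, and how the authors' counting split reads between copies is not given in the sources used here. ATF6 had 151 CPM in the library labelled ARID1B shRNA, within the 169, 179 and 149 CPM of wild type, a log2 difference of -0.14 with an interval of -0.58 to 0.31 (adjusted p = 0.667). Differences as large as those of ERN1 and XBP1 lie outside that interval; whether these genes differ from ATF6 was not tested. EIF2AK3, the gene of PERK, named here after its values were seen, had 23.1 CPM in the library labelled ARID1B shRNA and 21.3, 23.8 and 22.5 CPM in wild type, a log2 difference of 0.04 with an interval of -0.50 to 0.58 (adjusted p = 0.933).

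Of the 10 ERAD genes, HERPUD1 rose and the other 9 did not pass. HERPUD1 had 88.4 CPM (776 reads) in the library labelled ARID1B shRNA, against 31.0, 43.6 and 37.0 CPM in the wild-type libraries (37.2 ± 6.31, SD, n = 3), with no overlap. The log2 difference was 1.25 ± 0.23 (SE), with an interval of 0.68 to 1.81, or 2.38-fold (edgeR adjusted p = 0.0439). It passed with the trend removed at 1.34 (adjusted p = 0.0327), but not without wild-type library 2, at 1.39 (adjusted p = 0.0574), or without library 3, at 1.24 (adjusted p = 0.111).

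The core of the same ligase complex is formed by SYVN1, the ubiquitin ligase HRD1, and its adaptor SEL1L. SYVN1 had 85.5 CPM in the library labelled ARID1B shRNA and 44.4, 54.9 and 58.2 CPM in wild type. It lay above every wild-type library, with a log2 difference of 0.70 and an interval of 0.18 to 1.22, and did not pass (adjusted p = 0.118); with the trend removed the difference was 0.26 (adjusted p = 0.460). Exons of SYVN1 overlap those of FAU on the same strand and MRPL49 on the other, so its reads are uncertain. SEL1L had 184 CPM in the library labelled ARID1B shRNA against 176, 182 and 162 CPM in wild type, a log2 difference of 0.08 with an interval of -0.32 to 0.48 (adjusted p = 0.780).

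OS9, an ER lectin that hands misfolded glycoproteins to that complex, lay below wild type. It had 177 CPM in the library labelled ARID1B shRNA, against 275, 256 and 282 CPM in the wild-type libraries. The log2 difference was -0.61 with an interval of -1.02 to -0.21 (adjusted p = 0.0954), and -0.72 with the trend removed (adjusted p = 0.0541); an antisense gene overlaps it.

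The mannosidase-like proteins EDEM1, EDEM2 and EDEM3, which mark glycoproteins for ERAD by trimming mannose, all stayed within the wild-type range. EDEM1 had 55.6 CPM in the library labelled ARID1B shRNA and 43.7, 60.5 and 46.1 CPM in wild type. EDEM2 had 33.6 CPM there and 34.4, 26.2 and 31.1 CPM in wild type. Their log2 differences, with that of EDEM3, were 0.15, 0.14 and -0.18, and the widest interval, that of EDEM3, ran from -0.84 to 0.49. EDEM3 had 94.0 CPM in the library labelled ARID1B shRNA, against 91.7, 134 and 93.3 CPM in wild type.

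The derlins, membrane proteins of the retrotranslocation step, showed no common direction. DERL1 had 104 CPM in the library labelled ARID1B shRNA, within the 85.6, 107 and 76.7 CPM of wild type. DERL2 had 43.4 CPM there, below the 48.5, 54.1 and 48.9 CPM of wild type (log2 difference -0.22, interval -0.69 to 0.25, adjusted p = 0.508). DERL3 was barely detected, with 1.25 CPM (11 reads) in the library labelled ARID1B shRNA and 0.930, 0.463 and 1.10 CPM in wild type, a log2 difference of 0.57 whose interval of -1.06 to 2.21 does not settle its sign.

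**Figure D2:**
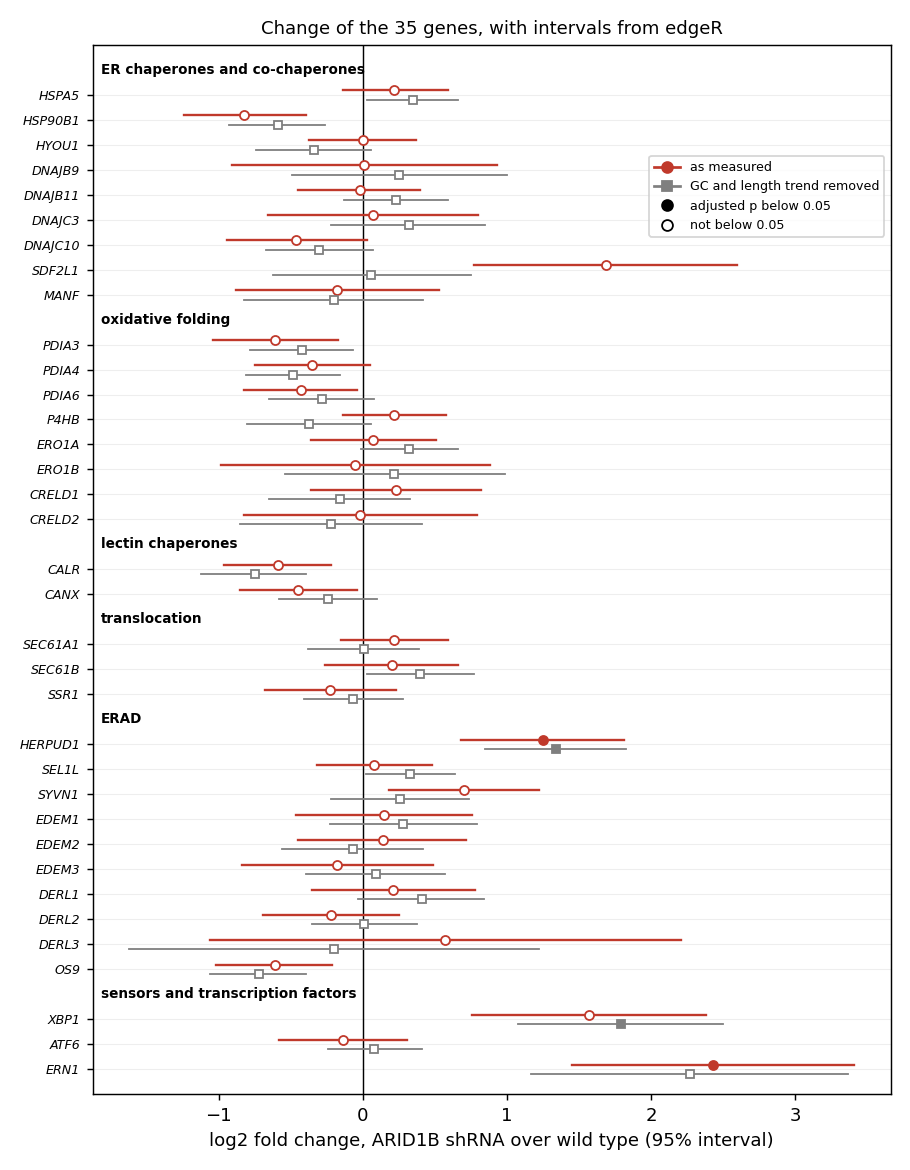
Log2 fold change of each of the 35 genes, the library labelled ARID1B shRNA over wild type, with its 95% interval from edgeR, as measured and after removal of the trend on GC content and length; filled symbols have an adjusted p below 0.05. Intervals are per gene and not adjusted for the number of genes; filled symbols are seen for ERN1 as measured, HERPUD1 in both fits and XBP1 with the trend removed.

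None of the 9 ER chaperones and co-chaperones passed the test in edgeR. At an unadjusted p below 0.05, 1 was higher, SDF2L1, and 1 lower, HSP90B1, against 15.6% and 9.79% of tested genes. The same 2 genes passed in DESeq2, where 9.20% of its tested genes were called higher and 2.88% lower. HSPA5, the gene most often used as a readout of ER stress, had 1071 CPM in the library labelled ARID1B shRNA, against 881, 962 and 912 CPM in wild type. It lay above every wild-type library by a small margin, with a log2 difference of 0.22 and an interval of -0.14 to 0.59 (adjusted p = 0.393), so that a rise of 2-fold lies outside the interval. HYOU1, the large Hsp70-like exchange factor of BiP, had 351 CPM in the library labelled ARID1B shRNA and 348, 356 and 347 CPM in wild type, the tightest wild-type values of the 35 genes (coefficient of variation 1.42%), with a log2 difference of 0.00 and an interval of -0.37 to 0.37 (adjusted p = 0.999).

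HSP90B1, which encodes GRP94, was the lowest of the 35 genes relative to wild type. It had 720 CPM in the library labelled ARID1B shRNA, against 1279, 1366 and 1164 CPM in the wild-type libraries, well below all of them. The log2 difference was -0.82 ± 0.17 (SE), with an interval of -1.24 to -0.39, or 1.76-fold lower. It missed the threshold in edgeR (adjusted p = 0.0591; 0.0784 with the trend removed) and passed in DESeq2 (adjusted p = 0.0157). HSP90B1 shares exonic positions with genes on either strand, and its reads are uncertain to that extent.

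SDF2L1, a small partner of the ERdj co-chaperones, had 12.0 CPM in the library labelled ARID1B shRNA and 3.56, 2.78 and 4.74 CPM in wild type. The library labelled ARID1B shRNA lay above the others by a wide margin, with a log2 difference of 1.69, an interval of 0.77 to 2.60 and an adjusted p of 0.0647. SDF2L1 has the highest GC content of the 35 genes, 65.5%, and is short, at 865 bases. Its difference was 0.06 once the joint trend on GC content and length was removed (adjusted p = 0.916). That fit does not separate GC content from length.

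The J-domain co-chaperones, which bring substrates to BiP and drive its ATPase, were mostly within the wild-type range. DNAJB9 had 67.1 CPM in the library labelled ARID1B shRNA and 48.6, 91.2 and 60.0 CPM in wild type. DNAJB9 is known in other cells as a target of spliced XBP1, and its log2 difference was 0.01 with a wide interval of -0.91 to 0.93 (adjusted p = 0.989). DNAJB11 had 101 CPM in the library labelled ARID1B shRNA, against 94.2, 109 and 104 CPM in wild type, a log2 difference of -0.02 with an interval of -0.45 to 0.40. DNAJC3 had 61.0 CPM there, against 52.3, 74.9 and 47.6 CPM in wild type, a log2 difference of 0.07 with an interval of -0.66 to 0.80.

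DNAJC10, a co-chaperone that also reduces disulfides, was the J-domain gene outside the wild-type range, with 128 CPM in the library labelled ARID1B shRNA against 160, 199 and 166 CPM in wild type. Its log2 difference of -0.46 had an interval of -0.94 to 0.03 (adjusted p = 0.221). MANF, a BiP-binding protein that is also secreted, had 33.3 CPM in the library labelled ARID1B shRNA and 29.0, 43.0 and 40.9 CPM in wild type, a log2 difference of -0.18 with an interval of -0.88 to 0.53.

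Both lectin chaperones lay below every wild-type library without passing the test. CALR, the soluble calreticulin, had 619 CPM in the library labelled ARID1B shRNA, against 922, 948 and 925 CPM in wild type. Its wild-type values were close together (coefficient of variation 1.53%), and the log2 difference was -0.59 with an interval of -0.96 to -0.22 (adjusted p = 0.0855; -0.75 and 0.0583 with the trend removed). CANX, the membrane-bound calnexin, had 899 CPM in the library labelled ARID1B shRNA and 1278, 1274 and 1121 CPM in wild type, a log2 difference of -0.45 with an interval of -0.85 to -0.04 (adjusted p = 0.168).

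PDIA3, the disulfide isomerase that works with calreticulin and calnexin, showed the same position. It had 330 CPM in the library labelled ARID1B shRNA, against 522, 532 and 453 CPM in wild type. The log2 difference was -0.61 with an interval of -1.04 to -0.17 (adjusted p = 0.110). Exons of PDIA3 overlap those of genes on the other strand, and 2 pseudogene copies are annotated, so its reads are uncertain. HSP90B1, CALR, CANX, PDIA3, PDIA6 and OS9 were the 6 genes lower at an unadjusted p below 0.05, and each missed the adjusted threshold.

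The other isomerases divided. PDIA4 had 411 CPM in the library labelled ARID1B shRNA, against 517, 495 and 561 CPM in wild type. PDIA6 had 255 CPM there, against 353, 327 and 352 CPM in wild type. For both, the library labelled ARID1B shRNA was below the wild-type range, with log2 differences of -0.35 (interval -0.75 to 0.05) and -0.43 (interval -0.82 to -0.04) and adjusted p of 0.243 and 0.168. P4HB, the archetypal protein disulfide isomerase, was above it, with 575 CPM in the library labelled ARID1B shRNA and 494, 486 and 505 CPM in wild type, a log2 difference of 0.22 (adjusted p = 0.396) that was -0.37 with the trend removed (adjusted p = 0.258).

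The oxidases that recharge these isomerases lay within the wild-type range. ERO1A had 168 CPM in the library labelled ARID1B shRNA and 148, 176 and 156 CPM in wild type, a log2 difference of 0.07 with an interval of -0.36 to 0.51. Its paralogue ERO1B had 6.04 CPM there and 5.19, 7.87 and 5.72 CPM in wild type, a log2 difference of -0.05 with an interval of -0.98 to 0.88. CRELD2, an ER-resident protein with disulfide isomerase activity, had 18.9 CPM in the library labelled ARID1B shRNA, within the 19.9, 14.3 and 23.1 CPM of wild type. Its paralogue CRELD1 had 18.6 CPM there, just above the 15.0, 15.2 and 17.4 CPM of wild type (log2 difference 0.23, interval -0.36 to 0.82, adjusted p = 0.580). None of these intervals reached 2-fold in either direction.

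The translocation genes differed little. SEC61A1, the pore of the Sec61 channel, had 598 CPM in the library labelled ARID1B shRNA and 529, 523 and 492 CPM in wild type. SEC61B, a small subunit of that channel, had 64.6 CPM there and 53.8, 61.0 and 53.4 CPM in wild type. Both lay just above the wild-type range, with log2 differences of 0.22 (interval -0.15 to 0.59) and 0.20 (interval -0.26 to 0.66) and adjusted p of 0.405 and 0.525. SSR1, of the translocon-associated TRAP complex, had 275 CPM in the library labelled ARID1B shRNA, just below the 330, 351 and 285 CPM of wild type (log2 difference -0.23, interval -0.68 to 0.23, adjusted p = 0.477).

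By role, the median log2 difference was 1.57 for the 3 sensors and transcription factors, 0.20 for translocation, 0.14 for ERAD, 0.00 for the chaperones, -0.03 for oxidative folding and -0.52 for the 2 lectin chaperones. The differences between these groups were not tested. Summed levels were 407 CPM for the sensors and transcription factors in the library labelled ARID1B shRNA, against 221, 277 and 229 CPM in wild type, and 1518 CPM for the lectin chaperones, against 2200, 2222 and 2047 CPM in wild type. ERN1, XBP1 and HERPUD1 were then left out, a choice made after their values were seen. The other 32 genes had a median of -0.01. That 0 of them passed as higher was fixed by this choice, because ERN1 and HERPUD1 were the only genes that had passed. It is therefore no finding about the 32 genes. As lower, 0 of the 32 passed, where 0.834% of tested genes did. At an unadjusted p below 0.05, 2 of the 32 were higher and 6 lower, against 15.6% and 9.79% of tested genes. The choice also lowered the counts of higher genes at an unadjusted p and in DESeq2. In DESeq2 1 of these 32 passed as higher, SDF2L1, and 1 as lower, HSP90B1, against 9.20% and 2.88% of its tested genes.

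The wild-type libraries lay closer together for these genes, at the median, than for all genes. The sets were not matched for read count, on which such a spread also depends. The median coefficient of variation over the 3 libraries was 9.16% for the 35 genes and 16.8% for all tested genes. It ran from 1.42% for HYOU1 to 39.8% for DERL3, and ERN1 at 38.6%, XBP1 at 29.3% and SDF2L1 at 26.8%, the 3 genes with the largest differences, were towards its upper end. Wild-type library 2 had the highest wild-type value for 23 of the 35 genes and library 1 the lowest for 16; for ERN1, XBP1 and HERPUD1 alike library 1 was the lowest and library 2 the highest.

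GC content moved with the measured differences across the whole table. Over deciles of GC content, the median log2 difference ran from -0.30 in the lowest decile to 1.32 in the highest, and Spearman's rho across genes was 0.47 over 16620 genes and 0.39 over the 35. These genes share the same 4 libraries and are not independent. After removal of the joint trend on GC content and length, rho was -0.04 over all genes and -0.30 over the 35. The median of the 35 was again 0.01 (-0.08 over all genes). The log2 difference of 9 of the 35 had the other sign, none of them past the threshold in either fit. The fit with the trend removed called 2 of the 35 higher, HERPUD1 and XBP1, and 0 lower, against 1.93% and 1.19% of tested genes. ERN1, XBP1 and HERPUD1 have GC contents of 50.8%, 41.5% and 47.9%, in deciles whose medians over all genes lay below 0.

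**Figure D3:**
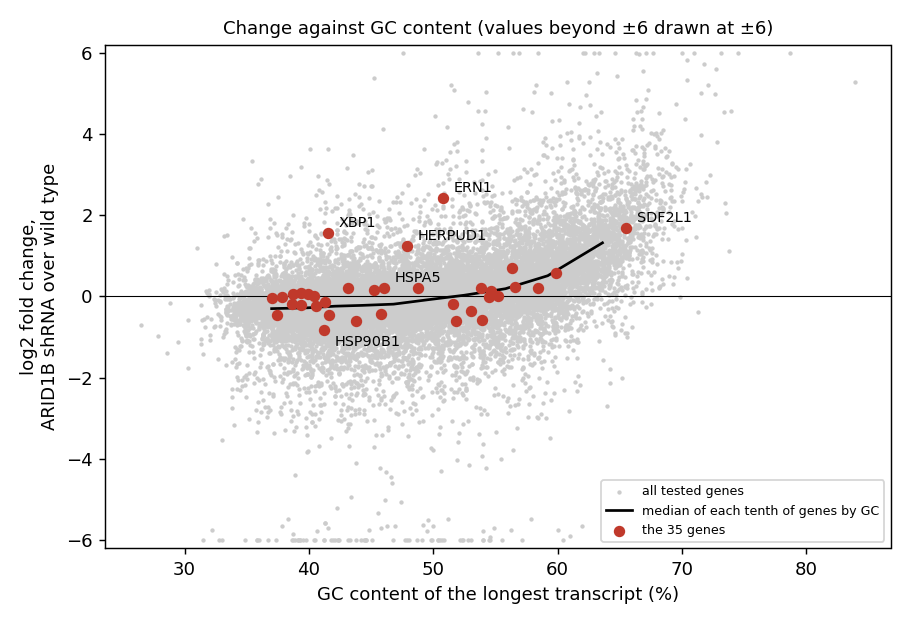
Log2 fold change, the library labelled ARID1B shRNA over wild type, against the GC content of the longest transcript, for all tested genes (grey), the 35 genes (red) and the median of each decile of GC content (line). SDF2L1, at 65.5% GC, lies near the line, whereas ERN1, XBP1 and HERPUD1 lie well above it.

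The other genes of the ER folding and quality control pathway numbered 98, of which 96 were tested (ERN2 and BHLHA15 were not). Of these, 2 rose, TXNDC5 and UBE2J2 (2.08%, against 3.65% of all tested genes), and 0 fell; at an unadjusted p below 0.05, 9 were higher and 10 lower, against 15.6% and 9.79% of all tested genes. DESeq2 called 5 of 95 higher and 0 lower, against 9.20% and 2.88% of its tested genes. The median log2 difference was -0.01, so these genes too were centred on the wild-type level.

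TXNDC5, an ER thioredoxin-domain protein, had 6.04 CPM (53 reads) in the library labelled ARID1B shRNA, against 0.542, 0.309 and 0.650 CPM in wild type. The wild-type values rest on only 7, 4 and 10 reads. The log2 difference was 3.55 ± 0.46 (SE; adjusted p = 0.0267). TXNDC5 overlaps the read-through gene BLOC1S5-TXNDC5 on the same strand, so how its reads were divided is uncertain. UBE2J2, an ER-anchored ubiquitin-conjugating enzyme of ERAD, had 98.9 CPM in the library labelled ARID1B shRNA and 31.5, 38.8 and 37.5 CPM in wild type, a log2 difference of 1.46 ± 0.19 (SE; adjusted p = 0.0273), which was 0.76 with the trend removed (adjusted p = 0.130). Neither passed without wild-type library 2 or without library 3, where TXNDC5 had an adjusted p of 0.0531 and UBE2J2 of 0.0592.

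In the lists where no gene passed, the gene with the smallest p was SERPINH1 among co-chaperones, SSR4 in translocation, MOGS in N-glycosylation and WFS1 among other UPR and ER stress factors. SERPINH1, the collagen chaperone HSP47, had 512 CPM in the library labelled ARID1B shRNA, against 332, 224 and 279 CPM in wild type (log2 difference 0.88, adjusted p = 0.0921). WFS1, the ER membrane protein wolframin, had 80.4 CPM there, against 33.6, 16.5 and 32.2 CPM in wild type (log2 difference 1.55, adjusted p = 0.0903). Both lay above all wild-type libraries. With the trend removed, the log2 difference was 0.47 for SERPINH1 and 0.82 for WFS1. MOGS, the glucosidase that starts trimming of N-glycans, had 80.4 CPM in the library labelled ARID1B shRNA against 48.6, 41.6 and 58.9 CPM in wild type. SSR4, of the TRAP complex, had 49.2 CPM there against 30.8, 30.1 and 39.4 CPM in wild type. Their log2 differences of 0.69 and 0.56 (adjusted p = 0.144 and 0.210) were -0.28 and -0.33 with the trend removed.

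The N-glycosylation and glycoprotein folding list had the lowest median of these lists, -0.29 over 16 genes. Of these, 10 (62.5%) lay below every wild-type library, against 37.9% of all tested genes. None of the 16 passed. At an unadjusted p below 0.05, 5 were lower and 1 higher, against 9.79% and 15.6% of all tested genes. The medians of the other lists were -0.16 for translocation and signal peptide processing (18 genes), -0.01 for other disulfide and prolyl isomerases (19), 0.05 for other sensors and ER stress factors (12), 0.12 for other ERAD genes (24) and 0.18 for other co-chaperones (7).

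The listed outputs of the PERK and ATF4 arm lay far above the wild-type level. Of 12 genes, 12 rose, against 3.65% of tested genes, with a median log2 difference of 2.52 and values from 1.21 for CEBPG to 4.73 for TRIB3. PPP1R15A, the GADD34 subunit of the phosphatase that reverses eIF2α phosphorylation, had 438 CPM in the library labelled ARID1B shRNA, against 38.7, 42.7 and 35.8 CPM in wild type (log2 difference 3.49, adjusted p = 0.0146). TRIB3, a pseudokinase induced by ATF4 and CHOP, had 222 CPM there, against 5.97, 9.18 and 9.88 CPM in wild type (log2 difference 4.73, adjusted p = 0.0149). ASNS, asparagine synthetase, had 330 CPM in the library labelled ARID1B shRNA and 63.4, 66.5 and 68.8 CPM in wild type (log2 difference 2.32, adjusted p = 0.0149), with 4 annotated pseudogene copies that may share its reads.

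With the trend removed, 11 of the 12 passed (1.93% of tested genes were called higher in that fit), with a median of 2.44, and CEBPB did not (log2 difference 0.87, adjusted p = 0.489). Without wild-type library 2, 7 passed, against 0.836% of tested genes, and without library 3, 10, against 2.68%. The list was drawn up with earlier results of these data known, so its count is a description of where these genes stood beside the 35, and the difference between the lists was not tested. Several of the 12 also respond to amino acid shortage and other stresses that act through ATF4 without unfolded protein in the ER.

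**Figure D4:**
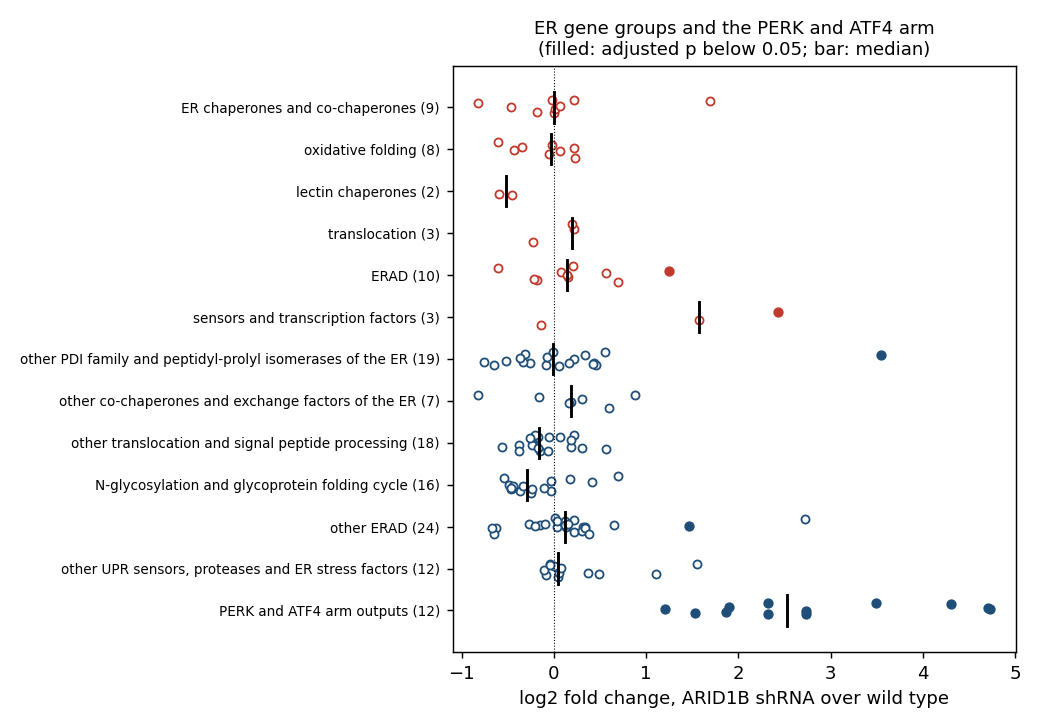
Log2 fold change of each gene, the library labelled ARID1B shRNA over wild type, by group, with the 6 role groups of the 35 genes in red and the other lists in blue; filled points have an adjusted p below 0.05, bars are medians and the number of tested genes is in brackets. The 12 PERK and ATF4 arm outputs are all filled and lie at 1.21 or above, while the medians of the ER folding, translocation and ERAD groups lie between -0.52 and 0.20.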

How the data were processed

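Poly(A)-selected RNA of 4 Daoy libraries was sequenced as single reads of 100 nucleotides, per the labels' protocols. The deposited values were unnormalized read counts per gene; bcl2fastq, HISAT2, HTSeq and DESeq2 with GRCh37 (hg19) are named in the submitters' processing notes, and the sources used here give neither their versions nor the strand setting or annotation release. Rows naming no gene were left out; reads outside genes came to 5.27% in the library labelled ARID1B shRNA and 7.07% to 7.65% in wild type.

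Symbols, GC content and length came from GENCODE on GRCh38 by identifier without version (52338 of 57820 matched). Counts were analysed in edgeR 4.0.16 (R 4.3.3): filterByExpr (minimum count 10, minimum total 15) left 17024 genes, TMM scaled the libraries, and glmQLFit with robust shrinkage and glmQLFTest compared the groups, with 2 residual degrees of freedom, all from wild type. Benjamini-Hochberg adjustment covered every tested gene, with a threshold of 0.05. The standard error is the absolute log2 fold change divided by the square root of F, and intervals are 95% per gene. CPM use TMM-scaled library sizes. No pair of libraries was a duplicate (chi-square per degree of freedom 23.1 or more).

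Alternatives were RLE scaling, DESeq2 1.42.0, limma-voom (limma 3.58.1), no filter, each wild-type library left out, and a loess trend on GC content and length (span 0.3, genes of mean count 20 or more; GC content known for 97.6% of tested genes) removed through offsets. The main fit and the fit with the trend removed were also run on simulated data. The simulation gave every gene the same setting of spread and held no trend on GC content or length. It therefore cannot check the trend removal or calls on genes whose wild-type values spread widely. The genes and lists were chosen with earlier results of these data known. All 35 genes are named; of the other lists, up to 3 genes with the smallest p that passed, or else the 1 with the smallest p. Promoter windows are from RefSeq on GRCh38.p14; PDIA3, DERL1 and DERL3 had none in the table. Of the 35 genes, 20 overlap an exon of another gene and 3 have a named pseudogene copy.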

Additional observations from a re-analysis of the deposited data

How the results depend on the processing

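The tested arm has 1 library, so each call rests on the spread of 3 wild-type libraries, and leaving out 1 of them leaves 1 residual degree of freedom. No paired analysis was possible because the groups share fewer than 2 replicate numbers. Of 8 alternatives, HERPUD1 and ERN1 passed in 6 each, XBP1 in 4, HSP90B1 and SDF2L1 in 2 each, and PDIA3, CALR, SYVN1 and OS9 in 1 each, that without a filter.

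Of all tested genes, 621 were called higher, with 1363 in DESeq2, 2274 with no filter, 329 with the trend removed and 140 to 912 with 1 wild-type library left out. The 142 called lower became 426 in DESeq2, 952 with no filter and 17 to 277 with 1 library left out. Of the 35 genes, 2 were called higher, with 4 in DESeq2, 5 with no filter and 0 to 3 with 1 library left out, and 0 lower, with 1 in DESeq2, 4 with no filter and 0 with any library left out. Of the other ER genes, 2 were called higher, with 5 in DESeq2, 7 with no filter, 1 with the trend removed and 0 to 3 with 1 library left out, and 0 lower, with 1 with no filter. The median log2 difference of the 35 genes, 0.01, was -0.01 to 0.13 with 1 library left out. Why the counts differ between tools was not tested.

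With the trend removed, the log2 difference changed sign for ARID1B (-0.18), DNAJB11 (0.23), P4HB (-0.37), ERO1B (0.22), CRELD1 (-0.16), EDEM2 (-0.07), EDEM3 (0.09), DERL2 (0.01), DERL3 (-0.20), ATF6 (0.08), SSR4 (-0.33) and MOGS (-0.28). With RLE scaling it changed sign for HYOU1 (0.03), DNAJB11 (0.00) and CRELD2 (0.01), in DESeq2 for HYOU1 (0.03), DNAJB11 (0.01) and CRELD2 (0.01), in limma-voom for CRELD2 (0.01) and with no filter for DNAJB9 (-0.01). With 1 wild-type library left out, the log2 difference ran across 0 for HYOU1 (-0.01 to 0.02; 0.02 without library 2), DNAJB9 (-0.17 to 0.31; -0.07 without library 3), DNAJB11 (-0.08 to 0.03), DNAJC3 (-0.07 to 0.30; 0.00 without library 1), ERO1B (-0.17 to 0.16), CRELD2 (-0.18 to 0.14; 0.01 without library 1) and EDEM3 (-0.27 to 0.03). None of these values passed the test.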
